A study of Homo sapiens with 240 samples.

Results

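The genes described here are 44 genes of the G2 phase and mitosis, taken by symbol from the 27234 genes of the deposited tables. All 44 were found in each of the 5 tables, and all 44 reached 1 TPM (a transcript level scaled by length and by library) in at least 3 libraries of each. They fall into 7 groups by role. The switch into mitosis is held by CDK1, its cyclins CCNB1, CCNB2 and CCNA2, the activating phosphatases CDC25B and CDC25C, and the small CDK-binding proteins CKS1B and CKS2. The other mitotic kinases are PLK1, AURKA, AURKB and NEK2. The spindle checkpoint and the anaphase machinery are represented by BUB1, BUB1B, TTK, MAD2L1, CDC20, UBE2C and PTTG1, and kinetochores and centromeres by CENPA, CENPE, CENPF, NUF2, NDC80, SPC25 and BIRC5. The 14 spindle motors and spindle proteins are KIF11, KIF14, KIF18A, KIF20A, KIF20B, KIF23, KIF2C, KIF4A, TPX2, HMMR, DLGAP5, NUSAP1, ASPM and PRC1, cytokinesis is represented by ANLN and ECT2, and the last group holds the DNA topoisomerase TOP2A and the transcription factor FOXM1.

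In a cycling cell these genes are transcribed late, from S phase into mitosis. Cyclin B with CDK1 drives entry into mitosis, the checkpoint proteins hold chromosomes until every kinetochore is attached, and CDC20 and UBE2C then direct destruction of cyclin B and of securin, the product of PTTG1. Many of their promoters carry a short element called the cell cycle genes homology region (CHR), bound by the repressive DREAM complex in resting cells and by MYBL2-MuvB complexes with FOXM1 in G2, often beside CCAAT boxes bound by NF-Y.

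The study asked how energy stress acts through AMPK (the AMP-activated protein kinase), its substrate FNIP1 and the factors TFEB, TFE3, ESRRA and PGC1A. The 240 libraries hold polyadenylated RNA of HEK 293T cells, a human embryonic kidney line with the SV40 large T antigen, which binds p53 and proteins of the RB family. AMPK KO and AMPK WT cells were given 991, a direct AMPK activator, CCCP, a mitochondrial uncoupler, phenformin, a biguanide that inhibits respiratory complex I, or rotenone, another complex I inhibitor that also binds tubulin and blocks microtubule assembly. Each was given for 2, 4, 8 or 16 h. The other experiments used 991 alone. FNIP1 knockout cells carrying the SA5 form, with 5 phosphorylation sites changed, were set against the same cells carrying WT FNIP1, at 2 to 16 h. TFEB/TFE3 DKO (double knockout) cells against WT cells, ESRRA KO against WT cells, and cells given siPGC1a against cells given siCont, a control siRNA, were followed to 24 h. Each arm had its own DMSO (vehicle) libraries at 0 h, and each of the 80 groups had 3 libraries. All comparisons of an arm with DMSO share those 3 libraries, and DMSO was sampled at 0 h alone, so compound and time in culture cannot be told apart. The sources used here give no doses and no number of clones behind the knockout lines. They do not say that libraries of a group came from separate cultures, and p-values then reflect library-to-library spread alone, which may be technical.

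TPM summed to 396341 to 449208 per library and keep no read counts, so depth is unknown. The median level of each targeted gene was lower in the altered arm. PRKAA1 (an AMPK catalytic subunit) had 2.15 to 3.73 TPM in AMPK KO libraries, against 6.03 to 10.6 TPM in AMPK WT libraries. PRKAA2 RNA overlapped, at 2.55 to 4.87 TPM in KO and 3.77 to 7.40 TPM in WT. ESRRA overlapped too, at 4.44 to 8.46 TPM in ESRRA KO and 8.01 to 12.7 TPM in ESRRA WT, as did TFEB and TFE3 between DKO and WT cells. PPARGC1A had at most 0.107 TPM with siPGC1a and at least 0.254 TPM with siCont. Of 10 markers of kidney segments, 1 reached 1 TPM in 3 libraries of each table. UMOD, the defining gene of the thick ascending limb, was listed at 0 in every library. Of 5 markers of the embryonic kidney line, 4 reached 1 TPM in 3 libraries of the AMPK table. There SIX2, an embryonic kidney gene, had 18 to 32.9 TPM, but PAX2 had 0.134 to 1.76 TPM and LHX1 0 to 0.145 TPM. In the FNIP1 table, SA5 DMSO library 1 stood apart from its group: its FNIP1 level was 5.47 TPM, against a median of 174 TPM over the SA5 libraries, and its 44 members summed to 1739 TPM, against 2632 and 2682 TPM in the other SA5 DMSO libraries. In the AMPK table, library 1 of WT with 991 at 4 h and library 1 of KO with DMSO were farthest from their groups, and results without them are given below where they differ. FNIP1 RNA was 146 to 241 TPM in the ESRRA table and 129 to 290 TPM in the PGC1A table, against 2.08 to 7.17 TPM in the AMPK table and 3.45 to 5.68 TPM in the TFEB and TFE3 table.

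RefSeq promoter windows, from 250 bases before to 50 bases after a start on GRCh38.p14, were found for 38 of the 44 members, 48 windows in all; TTK, UBE2C, AURKA, TPX2, FOXM1 and BIRC5 had no entry. A CHR, searched as TTTGAA or TTCGAA on both strands, lay in 33 of 48 windows (68.8%), against 16.4% of all 35116 windows. The CCAAT box, searched as CCAAT on both strands, lay in 37 windows (77.1%), against 34.6% of all, and both lay in 28 (58.3%), against 6.38% of all. These matches describe letters in a window and do not show binding. The windows of 5 members are printed 5′ to 3′ on the gene's strand, with matches on either strand in capitals, because their genes recur in the results. CCNB2 (chr15:59104896-59105195, plus strand) and PLK1 (chr16:23678639-23678938, plus strand) hold CCAAT boxes, 1 of them in PLK1, followed by a CHR. NDC80 (chr18:2571307-2571606, plus strand), which had the largest change of the 44 with 991 at 16 h, holds adjacent CHR matches at its start and no CCAAT. CCNB1 (chr5:69166900-69167199, plus strand) holds CCAAT boxes and neither of the CHR spellings searched. No other spelling of the element was searched. MAD2L1 (chr4:120066799-120067098, minus strand), which was not called with 991 at 16 h, holds a CHR match after its start.
CCNB2: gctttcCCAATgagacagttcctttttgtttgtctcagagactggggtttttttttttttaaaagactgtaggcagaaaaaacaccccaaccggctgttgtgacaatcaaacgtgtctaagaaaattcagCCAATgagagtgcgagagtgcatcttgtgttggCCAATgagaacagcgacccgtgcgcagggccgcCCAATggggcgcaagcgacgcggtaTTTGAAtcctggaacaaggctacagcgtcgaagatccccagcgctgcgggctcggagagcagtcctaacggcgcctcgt
PLK1: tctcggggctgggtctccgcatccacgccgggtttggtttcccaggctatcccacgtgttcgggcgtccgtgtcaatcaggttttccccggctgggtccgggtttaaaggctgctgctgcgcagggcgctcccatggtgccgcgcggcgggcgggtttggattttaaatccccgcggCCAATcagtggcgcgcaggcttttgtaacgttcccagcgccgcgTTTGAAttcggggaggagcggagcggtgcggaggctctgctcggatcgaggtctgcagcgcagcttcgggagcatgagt
NDC80: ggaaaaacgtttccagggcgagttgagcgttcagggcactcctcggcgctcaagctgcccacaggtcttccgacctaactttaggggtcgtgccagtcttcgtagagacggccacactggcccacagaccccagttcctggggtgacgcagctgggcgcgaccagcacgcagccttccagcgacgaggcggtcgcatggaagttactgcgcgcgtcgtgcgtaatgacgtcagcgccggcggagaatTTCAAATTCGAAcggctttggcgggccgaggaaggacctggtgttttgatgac
CCNB1: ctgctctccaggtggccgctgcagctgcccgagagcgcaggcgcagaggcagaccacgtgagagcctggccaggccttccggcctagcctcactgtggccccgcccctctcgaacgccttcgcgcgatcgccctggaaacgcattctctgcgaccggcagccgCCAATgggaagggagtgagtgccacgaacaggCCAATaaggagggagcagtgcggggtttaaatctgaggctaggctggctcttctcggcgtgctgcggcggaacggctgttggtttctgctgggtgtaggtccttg
MAD2L1: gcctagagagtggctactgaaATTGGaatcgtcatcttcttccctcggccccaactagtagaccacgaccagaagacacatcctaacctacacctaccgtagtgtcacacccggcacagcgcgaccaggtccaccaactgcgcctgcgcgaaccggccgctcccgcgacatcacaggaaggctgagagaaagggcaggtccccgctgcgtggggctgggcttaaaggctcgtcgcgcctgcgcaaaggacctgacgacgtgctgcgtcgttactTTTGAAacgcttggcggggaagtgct

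Untreated levels spanned a wide range. Under DMSO, mean levels ran from 1.47 TPM for SPC25, a subunit of the NDC80 complex, to 179 TPM for CKS2 in AMPK KO cells, and from 1.24 TPM for SPC25 to 176 TPM for CKS2 in AMPK WT cells. CCNB1, CDC20, BIRC5, PTTG1, UBE2C and CKS2 had the highest means in WT, at 97.9 TPM or more, while the motors KIF14, KIF18A and KIF20B lay at 7.11 TPM or less. PTTG1 and CKS1B have near-identical copies elsewhere in the genome, and how shared reads were counted is not given in the sources used here, so their levels are less certain.

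Nearly the whole set was higher at 8 and 16 h of 991 than with DMSO at 0 h in AMPK WT cells. With limma's moderated test on log2(TPM + 1) and Benjamini-Hochberg adjustment over all 13617 genes of the table, members with an adjusted p under 0.05 are called. Called higher were 15 of 44 at 2 h (5.94% of all genes were called higher), 32 at 4 h (27%), 44 at 8 h (41.3%) and 42 at 16 h (41.9%). Called lower were 3 at 4 h (18.9% of all genes), namely CDC20, FOXM1 and BIRC5, and none at 2, 8 or 16 h (11.4%, 22.7% and 26.9%). The median change of the members was 0.12, 0.30, 0.54 and 0.53 on the log2 scale at 2, 4, 8 and 16 h; over all genes it was 0.07 at 16 h. Summed over the members, 2759, 2785 and 2806 TPM were measured at 16 h, against 1999, 2009 and 2055 TPM with DMSO. In bulk RNA, more cells in G2 or mitosis and more of these RNAs per cell cannot be told apart.

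The CDK1 switch rose as a group with 991 at 16 h, with all 8 members called higher and a median of 0.40. CDK1 had 91.6, 89.8 and 91 TPM with 991, against 56, 57.7 and 57.5 TPM with DMSO. The groups did not overlap, and the change was 0.66 ± 0.06 (log2 change ± SE here and below; adjusted p = 2.8e-15, limma). CDC25C, which removes the inhibitory phosphates from CDK1, had 21.4, 19.4 and 20.6 TPM with 991 and 13, 12.8 and 13.1 TPM with DMSO, a change of 0.62 ± 0.06. CCNB1 changed less. It had 123, 126 and 119 TPM with 991 and 103, 109 and 106 TPM with DMSO, a change of 0.21 ± 0.04, with every treated library above every DMSO library. CKS2 and CKS1B changed by 0.61 ± 0.04 and 0.48 ± 0.06, and CCNB2 by 0.31 ± 0.05.

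All 4 of the other mitotic kinases rose, with a median of 0.39. AURKA, which matures the centrosomes, changed most, by 0.77 ± 0.07, with 79.8, 80.5 and 78.1 TPM at 16 h of 991 and a DMSO mean of 46.4 TPM. PLK1, which acts on centrosomes, CDC25C and the kinetochore, had 98.6, 103 and 103 TPM with 991, against 85.3, 86.3 and 81.4 TPM with DMSO, a change of 0.27 ± 0.04. AURKB, the kinase of the chromosomal passenger complex, changed by 0.24 ± 0.04. The kinases thus differed in size, and in each the treated libraries lay above the DMSO libraries.

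Checkpoint and anaphase genes were divided, with 5 of 7 called higher. TTK, the kinase that starts checkpoint signalling, had 35.8, 35.6 and 35.5 TPM with 991, and 17.2, 20.6 and 18.8 TPM with DMSO, a change of 0.89 ± 0.08. The 2 members that were not called also act here. MAD2L1, the checkpoint protein that binds CDC20, had 92.6, 92.5 and 92 TPM with 991 and 90.3, 87.1 and 84.9 TPM with DMSO, a difference of 0.08 ± 0.06 (adjusted p = 0.24, limma). CDC20, which activates the anaphase-promoting complex, had 99.8, 97.2 and 100.5 TPM with 991 and 96, 101.6 and 96.2 TPM with DMSO, so that its groups overlapped. Its difference was 0.02 ± 0.04 (adjusted p = 0.7, limma), and the sign was opposite with the tables rescaled by median ratios (-0.06).

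All 7 kinetochore and centromere genes were called higher, with a median of 0.61. NDC80, the microtubule-binding subunit of the outer kinetochore, had 24.5, 23.5 and 22.6 TPM with 991, against 9.04, 10.6 and 9.19 TPM with DMSO. Its change of 1.21 ± 0.10 was the largest among the members (adjusted p = 4.4e-18, limma). CENPF, which is recruited to kinetochores in G2, had 30.7, 29.9 and 28.2 TPM with 991 and 23.5, 20.5 and 22.3 TPM with DMSO, a change of 0.41 ± 0.07. The groups of both genes were apart. CENPA, the histone H3 variant of centromeres, changed by 0.78 ± 0.06, and BIRC5, a passenger complex subunit better known as survivin, by 0.17 ± 0.03.

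All 14 spindle genes were called higher, with a median of 0.53. HMMR, a spindle pole protein, had 40.6, 41.1 and 39.4 TPM with 991, against 20.3, 20.8 and 20.9 TPM with DMSO, a change of 0.93 ± 0.07. KIF20A, a motor of the central spindle, had 33.3, 33.4 and 33.2 TPM with 991, and 24.8, 24.7 and 24.6 TPM with DMSO, a change of 0.42 ± 0.05. Both cytokinesis genes rose, the scaffold ANLN by 0.78 ± 0.07 and the RhoA activator ECT2 by 0.27 ± 0.05. TOP2A, which untangles sister chromatids, had 114, 113 and 112 TPM with 991, against 66.4, 67.7 and 66.7 TPM with DMSO, a change of 0.74 ± 0.04. FOXM1, which activates many of these promoters, had 63.1, 61.1 and 61.1 TPM with 991 and 53.5, 51 and 50.4 TPM with DMSO, a change of 0.25 ± 0.04. In each of these genes every 991 library lay above every DMSO library.

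**Figure D1:**
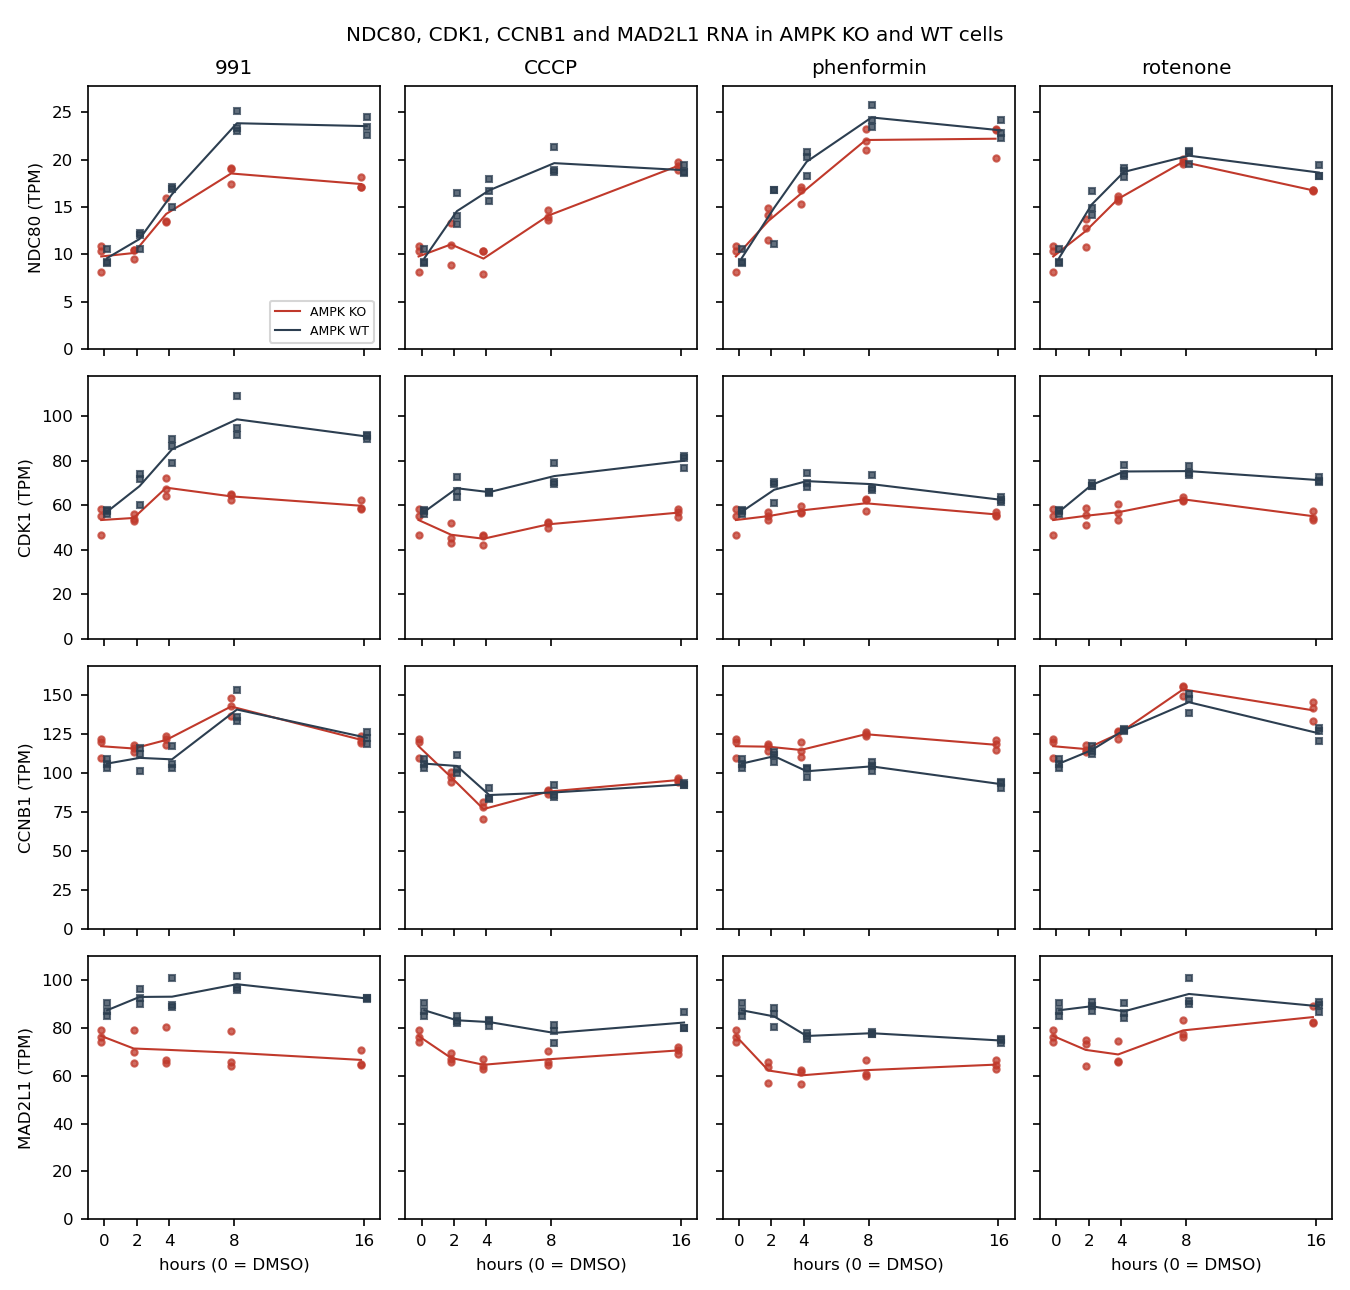
TPM of NDC80, CDK1, CCNB1 and MAD2L1 (rows) against hours of treatment for 991, CCCP, phenformin and rotenone (columns), with AMPK KO libraries as red circles, AMPK WT libraries as dark squares, lines through the group means and DMSO at 0 h. With 991 at 16 h, CDK1 lay at 58.3 to 62.2 TPM in KO and at 89.8 to 91.6 TPM in WT, while MAD2L1 stayed closer to its DMSO level in WT.

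The rise with 991 was in place by 8 h. NDC80 in WT cells had 10.5, 12.1 and 12.3 TPM at 2 h, 15, 17 and 17.1 TPM at 4 h, and 25.1, 23.4 and 23.1 TPM at 8 h. CDK1 had 60.1, 71.6 and 73.9 TPM at 2 h, 86.7, 78.8 and 89.6 TPM at 4 h, and 109, 91.6 and 94.6 TPM at 8 h. The 2 h and 4 h libraries of each gene were on average between the DMSO and the 8 h libraries. HMMR was already called at 2 h, with a change of 0.36 ± 0.07. CDC20 fell by 0.17 (SE 0.04) at 4 h and rose by 0.15 ± 0.04 at 8 h. Of the 44 members, 15 were first called higher at 2 h, 19 at 4 h and 10 at 8 h. Without the outlying WT library at 4 h and the outlying KO DMSO library, 35 members were called higher and 1 lower at 4 h, in an alternative added after the data were seen. The 2 h count moved when a replicate was left out of every group. Without replicates 1, 2 and 3 in turn, 20, 4 and 3 members were called higher. Of all genes, 23.5%, 5.59% and 4.6% were then called either way, against 17.3% with all libraries. The members' median was 0.14, 0.11 and 0.10.

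CCCP split the set in AMPK WT cells. At 2, 4, 8 and 16 h, 23, 22, 25 and 29 members were called higher, where 24.2%, 28.7%, 35.2% and 44.1% of all genes were. Called lower were 2, 8, 8 and 6 members, where 32.5%, 35.3%, 29.8% and 26.6% of all genes were. With median-ratio scaling the split at 16 h was 26 higher and 10 lower. The median change at 16 h was 0.29. The genes that fell at 16 h were CCNB1, PLK1, AURKB, CDC20, BIRC5 and KIF20A. CCNB1 had 93.8, 92.2 and 92.2 TPM with CCCP, against 103, 109 and 106 TPM with DMSO, and fell by 0.19 (SE 0.04). KIF20A had 21.3, 20.2 and 19.7 TPM with CCCP and 24.8, 24.7 and 24.6 TPM with DMSO, and fell by 0.26 (SE 0.05). Both genes were below every DMSO library. CDK1 and NDC80 rose under the same treatment. CDK1 had 81, 76.6 and 82.1 TPM with CCCP and changed by 0.48 ± 0.06, and NDC80 had 18.7, 18.6 and 19.5 TPM and changed by 0.91 ± 0.10. TOP2A changed by 0.50 ± 0.04 and CDC25B by 0.43 ± 0.04.

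Most members were higher with phenformin than with DMSO at 0 h in AMPK WT cells. At 2, 4, 8 and 16 h, 28, 30, 36 and 33 members were called higher, where 23.7%, 28.3%, 36.8% and 45.3% of all genes were, and 1, 4, 1 and 5 were called lower, where 31%, 37.5%, 36% and 34.9% were. Without replicate 3 of every group, 12 were called higher at 2 h. The median at 16 h was 0.42. TTK had 44.1, 43.1 and 44 TPM at 16 h and changed by 1.17 ± 0.08, and FOXM1 had 87, 87 and 86.8 TPM and changed by 0.74 ± 0.04. Both were clear of their DMSO libraries. NDC80 changed by 1.19 ± 0.10, CENPA by 0.98 ± 0.06, ANLN by 0.98 ± 0.07 and CKS1B by 0.83 ± 0.06. The members that fell were CCNB1, CCNA2, MAD2L1, PTTG1 and BIRC5. CCNB1 had 93.8, 90.7 and 94.2 TPM and fell by 0.19 (SE 0.04), and MAD2L1 fell by 0.22 (SE 0.06). CDK1 had 62.3, 63.5 and 61.4 TPM, a difference of 0.13 ± 0.06 that was not called (adjusted p = 0.053, limma).

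Almost all members were higher at 8 and 16 h of rotenone than with DMSO at 0 h in AMPK WT cells, and none was called lower. At 2, 4, 8 and 16 h, 28, 37, 43 and 41 of 44 were called higher, where 24.9%, 30.6%, 35.3% and 36.2% of all genes were, and 0 were called lower, where 30.2%, 28.5%, 27.3% and 29.2% were. The median was 0.44 at 8 h and 0.34 at 16 h. All 8 genes of the CDK1 switch and all 14 spindle genes were called higher at 16 h. CCNB1 had 129, 127 and 121 TPM with rotenone, every library above the DMSO libraries, and changed by 0.24 ± 0.04. BUB1B, the checkpoint protein BubR1, changed by 0.77 ± 0.06 and KIF20B by 0.82 ± 0.09, while NDC80 had 19.4, 18.3 and 18.2 TPM and changed by 0.89 ± 0.10. Not called at 16 h were MAD2L1 (0.03 ± 0.06), AURKB (-0.02 ± 0.04) and SPC25 (0.16 ± 0.11).

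**Figure D2:**
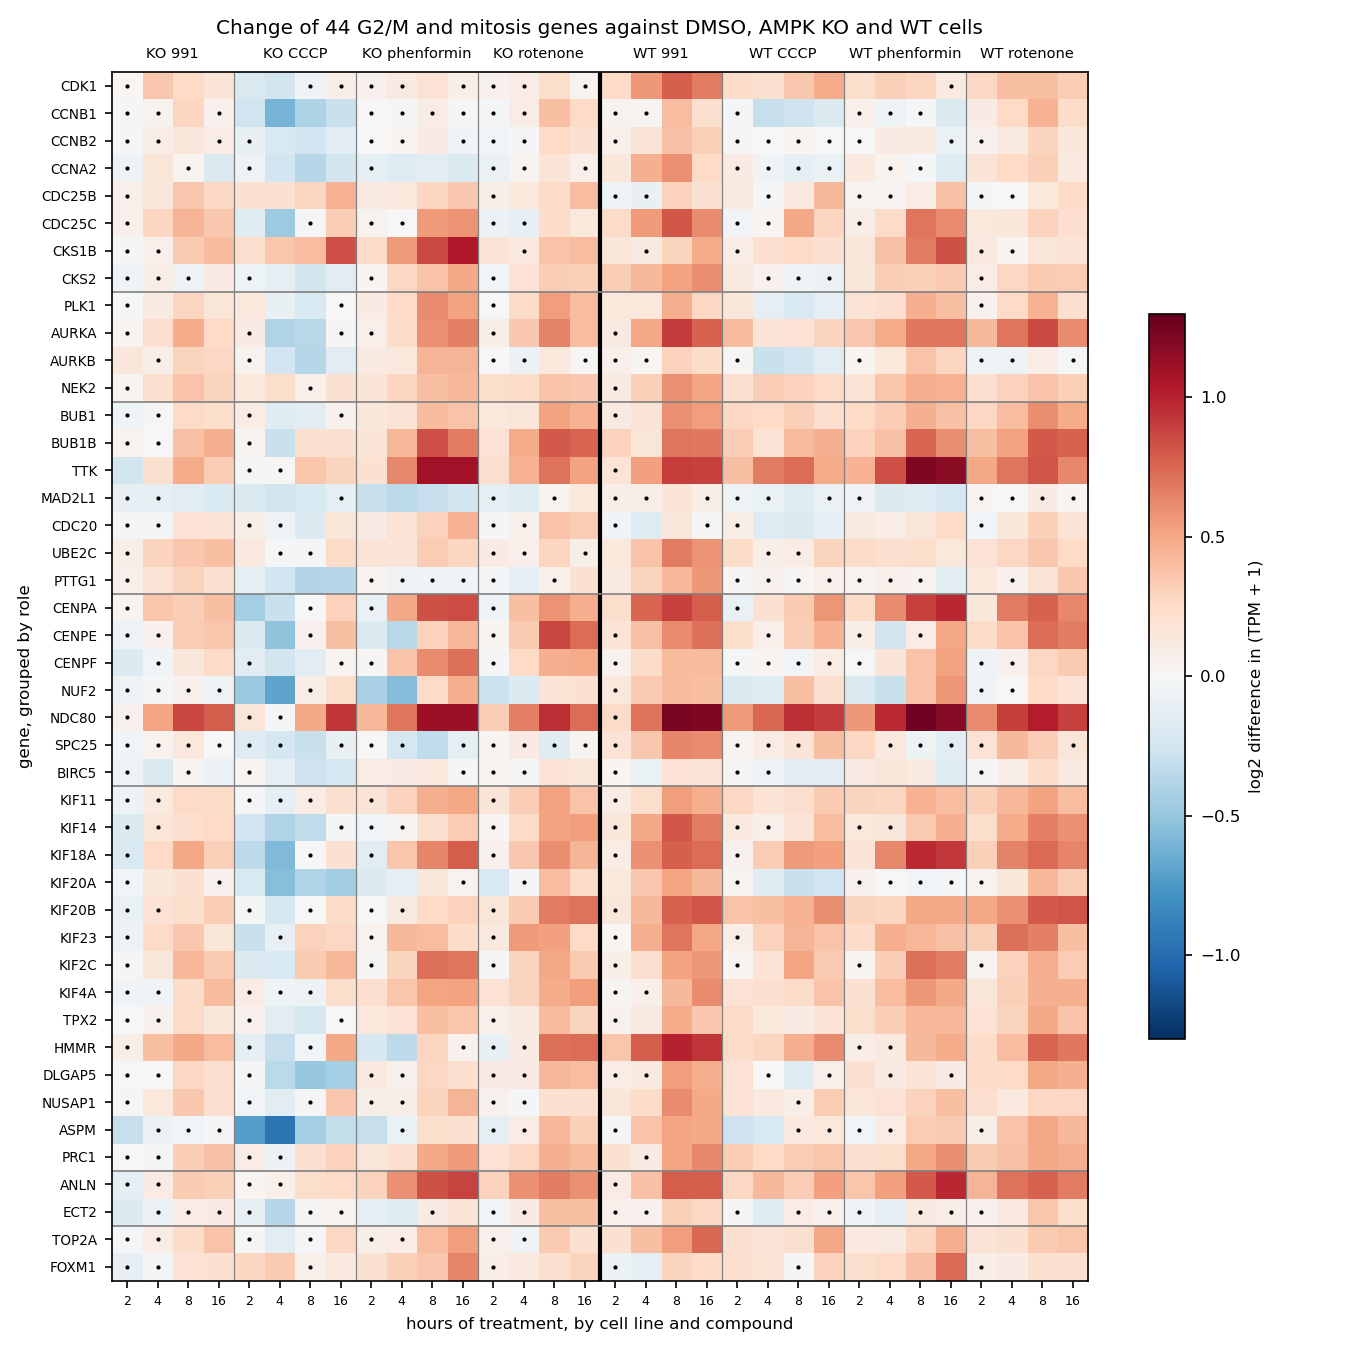
Log2 change against DMSO of each of the 44 members (rows, in blocks by role) for each compound and hour (columns), with AMPK KO on the left and AMPK WT on the right; a dot marks a change that was not called, and the colour scale ends at 1.3 on either side of 0. WT columns for rotenone hold no called fall, and the KO columns for CCCP hold 14, 30, 19 and 10 called falls at 2, 4, 8 and 16 h.

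Rotenone was compared with the other compounds at matched times without using DMSO; doses are not given, so equal strength cannot be assumed. Against phenformin, which shares the complex I target, rotenone differed in both directions at 16 h in WT cells. There 15 members were higher and 18 lower, where 29.3% and 40.1% of all genes were, with a median of -0.03. These counts lie near the shares of all genes, so the split itself is no result about the members. With median-ratio scaling the split was 18 higher and 12 lower, where 67.8% of all genes were called either way. PTTG1, the securin, had 128, 130 and 129 TPM with rotenone and 90.5, 91.9 and 93.4 TPM with phenformin, a difference of 0.48 ± 0.04. CCNB1 was higher with rotenone by 0.43 ± 0.04, the spindle protein DLGAP5 by 0.35 ± 0.07, KIF20A by 0.34 ± 0.05 and MAD2L1 by 0.25 ± 0.06. Cyclin B and securin are destroyed as proteins through the anaphase-promoting complex, but these values are RNA levels. Substrates of that complex were not counted as a set, and its action was not tested. Lower with rotenone were CKS1B (-0.65 ± 0.06), TTK (-0.55 ± 0.08), FOXM1 (-0.53 ± 0.04), CDC25C (-0.40 ± 0.06), NUF2 (-0.39 ± 0.06) and AURKB (-0.30 ± 0.04). TTK had 30.3, 28.6 and 29.7 TPM with rotenone and 44.1, 43.1 and 44 TPM with phenformin, with no overlap. In KO cells 13 members were higher and 20 lower at 16 h (33.1% and 34.2% of all genes). There CCNB1 was higher with rotenone by 0.24 ± 0.04, PTTG1 by 0.24 ± 0.04 and HMMR by 0.67 ± 0.07, and CKS1B (-0.64 ± 0.06) and TTK (-0.57 ± 0.08) were lower.

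**Figure D3:**
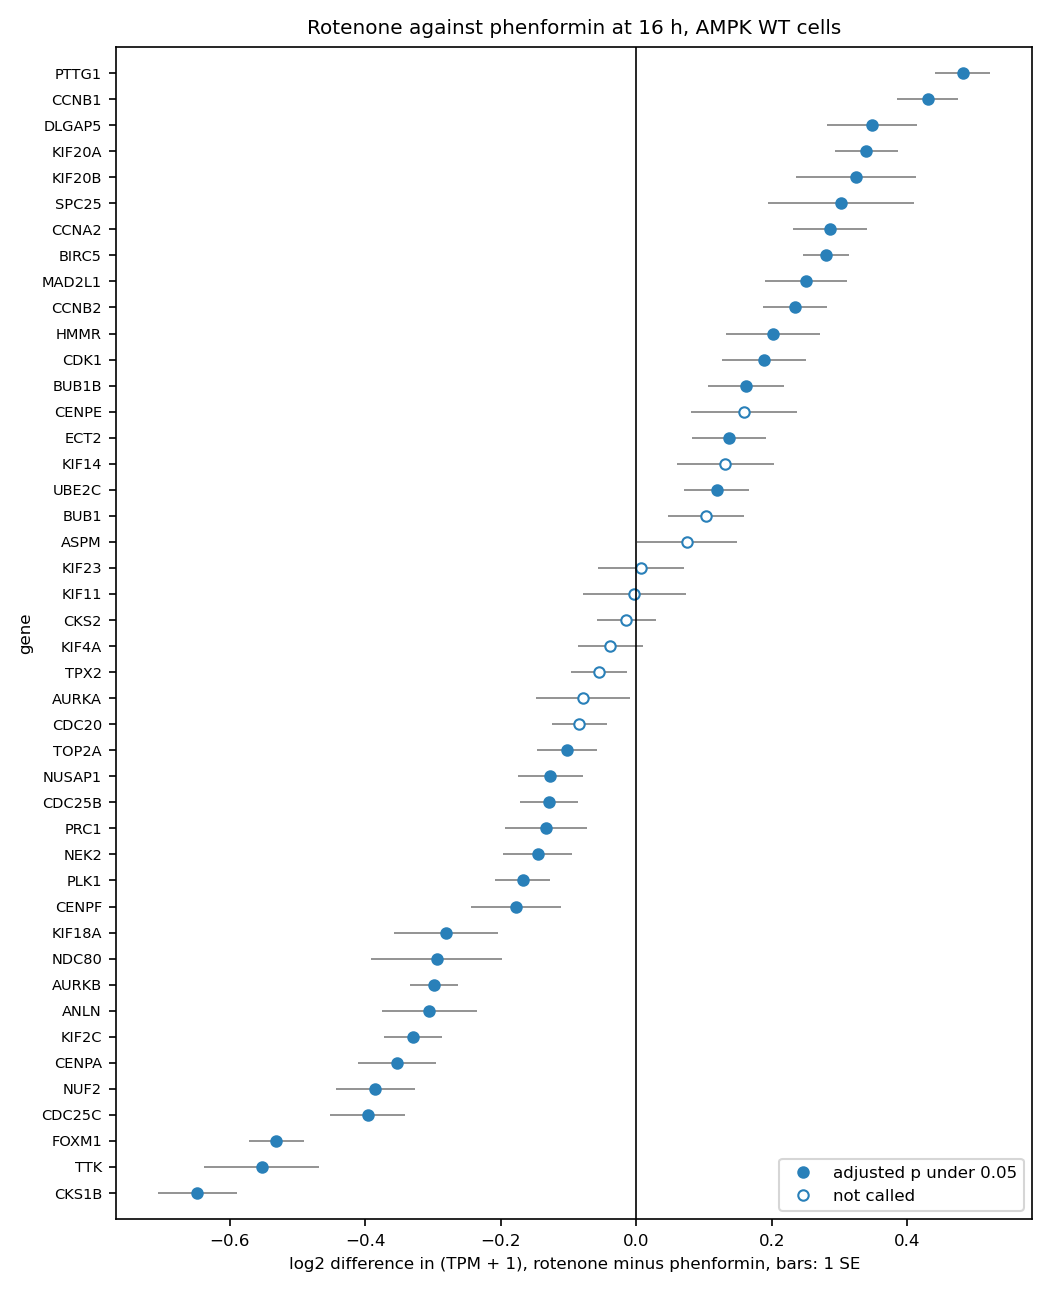
Log2 difference, rotenone minus phenformin at 16 h in AMPK WT cells, for each of the 44 members with bars of ±1 SE; filled points have an adjusted p under 0.05. PTTG1 (0.48) and CCNB1 (0.43) lie at the rotenone end, and CKS1B (-0.65) and TTK (-0.55) at the phenformin end.

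Against CCCP, rotenone was higher for most of the called members. In WT cells, 34 members were higher and 1 lower at 8 h (20.1% and 16.4% of all genes), and 20 higher and 3 lower at 16 h (9.8% and 23.7%), or 28 and 0 at 16 h with median-ratio scaling. CCNB1 had 151, 139 and 147 TPM with rotenone at 8 h, against 92.2, 85.7 and 84.9 TPM with CCCP, a difference of 0.72 ± 0.04. KIF20A differed by 0.72 ± 0.05, AURKA by 0.68 ± 0.07 and PLK1 by 0.65 ± 0.04. CDC25C was the member lower with rotenone at 8 h (-0.20 ± 0.06). In KO cells 40 members were higher and 0 lower at 8 h (28.7% and 18.3% of all genes), AURKA by 1.01 ± 0.07. Against 991 in WT cells at 16 h, rotenone was lower for 20 members and higher for 1, CDC20, where 18.9% and 8.99% of all genes were. The members lower with rotenone included SPC25 (-0.46 ± 0.11), CDC25C (-0.40 ± 0.06), TOP2A (-0.38 ± 0.04) and CDK1 (-0.35 ± 0.06). In KO cells rotenone was higher than 991 for 23 members and lower for 4 at 16 h (17.5% and 15.5% of all genes); that difference between arms was tested only as the responses against DMSO described next.

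AMPK KO cells differed from WT cells already under DMSO. Called higher in KO were 19 members and lower 6, where 16.2% and 22.7% of all genes were, with a median of 0.12. KIF20A had 31.9, 30.6 and 31.2 TPM in KO and 24.8, 24.7 and 24.6 TPM in WT, a difference of 0.33 ± 0.05. CDC20 had 113, 120 and 115 TPM in KO and 96, 101.6 and 96.2 TPM in WT, a difference of 0.25 ± 0.04. The arms did not overlap for either gene. CENPE, a motor that aligns chromosomes, was higher in KO by 0.40 ± 0.08, AURKA by 0.34 ± 0.07 and PTTG1 by 0.32 ± 0.04. The 6 members lower in KO were NUF2 (-0.29 ± 0.06), CENPF (-0.27 ± 0.07), ECT2 (-0.26 ± 0.05), NEK2 (-0.25 ± 0.05), CKS1B (-0.24 ± 0.06) and MAD2L1 (-0.19 ± 0.06). Without the outlying KO DMSO library and the outlying WT library, 24 were higher and 6 lower, and without replicate 3 of every group 12 and 6.

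Most members were also higher at 8 and 16 h of 991 than with DMSO at 0 h in KO cells. Compound and time in culture cannot be told apart there. Called higher were 1, 18, 36 and 34 members at 2, 4, 8 and 16 h, where 4.28%, 20.4%, 30.9% and 34.8% of all genes were, and lower 4, 1, 1 and 3, where 10.7%, 18.3%, 24.3% and 27.1% were. With median-ratio scaling 1 was higher and 2 were lower at 2 h, and with quantile normalization 1 and 1. The median was 0.27 at 8 h and 0.24 at 16 h. Without the outlying KO DMSO library, 11, 32 and 27 members were called higher at 4, 8 and 16 h, and 0 higher and 8 lower at 2 h. Of all genes, 29.9%, 47.2% and 53.8% were then called either way at 4, 8 and 16 h, and 13.5% at 2 h. Without replicate 3 of every group, 11 were higher at 4 h and none was called at 2 h, where 22.1% and 1.44% of all genes were called either way. NDC80 changed by 0.78 ± 0.10 in KO at 16 h, TOP2A by 0.38 ± 0.04 and CDC20 by 0.18 ± 0.04, whereas MAD2L1 fell by 0.20 (SE 0.06). CCNB1 had a mean of 121 TPM with 991 and 117 TPM with DMSO in KO, which was not called (0.05 ± 0.04).

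The response to 991 was smaller in KO cells for most members. The difference of the KO and WT responses was called negative for 3, 14, 32 and 33 members at 2, 4, 8 and 16 h, where 1.59%, 6.57%, 15.8% and 10% of all genes were. It was called positive for 0, 1, 0 and 1, where 1.42%, 5.49%, 5.14% and 4.96% were. The median was -0.30 at 8 h and -0.28 at 16 h, and over all genes it was -0.04 at 16 h. CDK1 had 62.2, 58.3 and 58.8 TPM with 991 in KO at 16 h, and 46.8, 55 and 58.2 TPM with DMSO in KO, so that those libraries nearly met, while the WT groups lay far apart. The difference of its responses was -0.49 ± 0.09 (adjusted p = 2.6e-05, limma). HMMR had 27.6, 23.7 and 26.4 TPM with 991 in KO and 18.3, 20.3 and 19.7 TPM with DMSO in KO. Its responses in KO and WT differed by -0.53 ± 0.10. CKS2 differed by -0.50 ± 0.06, AURKA by -0.51 ± 0.10, TTK by -0.55 ± 0.12, ANLN by -0.47 ± 0.10 and SPC25, a low gene, by -0.62 ± 0.15.

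By role, the 16 h difference was called negative for 5 of 8 genes of the CDK1 switch, 2 of 4 kinases, 6 of 7 checkpoint and anaphase genes, 6 of 7 kinetochore genes, 12 of 14 spindle genes, 1 of 2 cytokinesis genes and TOP2A. CDC20 was the member called positive (0.16 ± 0.06), a call lost without replicate 1, 2 or 3 of every group, without the outlying libraries and with quantile normalization. CCNB1 (-0.16 ± 0.06), PLK1 (-0.11 ± 0.06) and FOXM1 (-0.06 ± 0.06) were not called. The counts moved when libraries were left out. Leaving out replicate 2 of every group left 14 members called at 16 h, and leaving out replicate 3 left 11. Of all genes, 3.88% and 3.72% were then called either way, against 15% with all libraries. The members' median was -0.28 and -0.29 in those fits. Without the outlying KO DMSO and WT libraries 0 were positive and 36 negative (21.1% of all genes either way). At 8 h the corresponding counts were 16, 12 and 37. At 2 h no member was called without replicate 2 or 3, against 19 without replicate 1 and 15 without the outlying libraries, all negative. At 4 h, 5 were called without replicate 2 and 1 without replicate 3, all negative, against 1 positive and 29 negative without replicate 1, and 1 and 22 without the outlying libraries.

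In AMPK KO cells, more members fell than rose with CCCP at 4 h. Called were 4 members higher and 30 lower, where 21.9% and 42.1% of all genes were, with a median of -0.21. With median-ratio scaling 6 were higher and 16 lower, where 65.4% of all genes were called either way. At 2 h, 6 were higher and 14 lower in KO (18.6% and 38% of all genes), but this split turned to 17 and 7 with median-ratio scaling and was 9 and 11 with quantile normalization, so no direction is given there. Without replicate 3 of every group 3 were higher and 7 lower at 2 h. At 8 h, 9 were higher and 19 lower (29.5% and 31.8%), and at 16 h, 24 and 10 (39.6% and 29.3%). At 4 h in KO, ASPM, a spindle pole protein, fell by 0.95 (SE 0.07), NUF2 by 0.69 (SE 0.06) and CCNB1 by 0.60 (SE 0.04). CKS1B (0.36 ± 0.06), FOXM1 (0.34 ± 0.04), NEK2 (0.22 ± 0.05) and CDC25B (0.19 ± 0.04) rose.

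The difference of the KO and WT responses to CCCP was called negative for 19, 33, 25 and 16 members at 2, 4, 8 and 16 h, where 6.52%, 20.8%, 13.8% and 17.7% of all genes were, and positive for 0, 2, 0 and 2, where 2.09%, 6.8%, 7.62% and 10.5% were. With median-ratio scaling 3 were positive and 11 negative at 16 h, and leaving out replicate 2 or 3 of every group left 11 and 5 members called. Of all genes, 26.4%, 14.5% and 12% were called either way in those fits. At 2 h, 8 were negative with median-ratio scaling, 1 without replicate 2 and 0 without replicate 3, and at 8 h 16 and 9 were negative without replicate 2 and without replicate 3. At 16 h the share of members was thus closer to that of all genes than at 4 h. KIF18A, a motor that dampens chromosome movement, had 3.37, 4.16 and 4.33 TPM with CCCP at 4 h in KO and 5.65, 7.10 and 6.38 TPM with DMSO in KO. In WT it had 7.51, 7.56 and 7.16 TPM with CCCP and 5.46, 5.69 and 5.90 TPM with DMSO. The gene thus fell in KO and rose in WT, and its responses differed by -0.91 ± 0.11 (adjusted p = 4.7e-10, limma). NDC80 differed by -0.78 ± 0.14, ASPM by -0.75 ± 0.10, TTK by -0.67 ± 0.12 and CDC25C by -0.49 ± 0.08, and CDC25B and FOXM1 were the members with a larger response in KO, by 0.21 ± 0.06 and 0.16 ± 0.06. At 16 h CKS1B had 55.5, 54.5 and 57.2 TPM with CCCP and 30.7, 31.6 and 29.7 TPM with DMSO in KO. The WT libraries had 42.1, 40.4 and 43.7 TPM with CCCP and 37.7, 35.2 and 36 TPM with DMSO. This response was larger in KO by 0.63 ± 0.08, while that of DLGAP5 was smaller in KO (-0.50 ± 0.09).

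By 8 h most members were higher with phenformin and with rotenone than with DMSO at 0 h in both arms. With phenformin, 17, 25, 38 and 34 members were called higher in KO at 2, 4, 8 and 16 h, where 21.9%, 28%, 34.2% and 41.2% of all genes were, and 7, 8, 3 and 2 lower, where 37.2%, 39.7%, 37.5% and 37.7% were. With median-ratio scaling the splits at 2 and 4 h were 30 against 3 and 30 against 4, and without replicate 2 or 3 of every group 10 and 7 were called higher at 2 h. With rotenone, 9, 24, 41 and 39 were called higher in KO, where 21.7%, 28.3%, 34.2% and 35.3% were, and 2, 3, 0 and 0 lower, where 30.6%, 28.4%, 27% and 27.9% were. At 2 h of rotenone the count higher was 19 with median-ratio scaling, 5 without the outlying libraries and 3 without replicate 3. For phenformin the difference of the KO and WT responses was called for 1, 2, 0 and 5 members, where 1.23%, 3.4%, 4.49% and 13.9% of all genes were; at 8 h limma gave 7 members with an unadjusted p under 0.05. The 5 members at 16 h were HMMR, with a smaller response in KO (-0.43 ± 0.10), and CCNB1, CDC20, AURKB and BIRC5, with larger ones (0.20 ± 0.06, 0.19 ± 0.06, 0.17 ± 0.05 and 0.15 ± 0.05). Without the outlying KO DMSO and WT libraries, 9, 6 and 2 members were called at 2, 4 and 8 h, all negative, and at 16 h 2 were positive and 3 negative. Of all genes, 3.71%, 7.21%, 9.88% and 21.8% were then called either way. Without replicate 1 of every group 18, 8, 3 and 9 were called at the 4 times, where 7.26%, 6.09%, 7.21% and 19.9% of all genes were. The 8 h and 16 h counts lie near those shares. Without replicate 2 or 3 none was called at 2, 4 and 8 h, and at 16 h 1 and 0 were. For rotenone the difference was called by limma for 0, 3, 0 and 0 members at 2, 4, 8 and 16 h, where 0.676%, 1.99%, 0.793% and 1.97% of all genes were, with 20, 5 and 10 members at an unadjusted p under 0.05 at 2, 8 and 16 h. The share of all genes at an unadjusted p under 0.05 is not given for either compound. Those unadjusted counts thus stand without a comparison. The called members at 4 h of rotenone all had smaller responses in KO. Without the outlying libraries the counts of calls for rotenone were 8, 17, 0 and 3, all negative, where 3.37%, 5.75%, 4.07% and 6.16% of all genes were called. Without replicate 1 they were 8, 10, 0 and 2, where 2.78%, 4.58%, 2.75% and 3.78% of all genes were called. Without replicate 2 or 3 no member was called at any of the 4 times. The difference for CDK1 at 16 h of rotenone was -0.26 ± 0.09 (adjusted p = 0.097, limma) and that for KIF20A was -0.07 ± 0.07; a difference that was not called does not show that the arms responded alike.

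**Figure D4:**
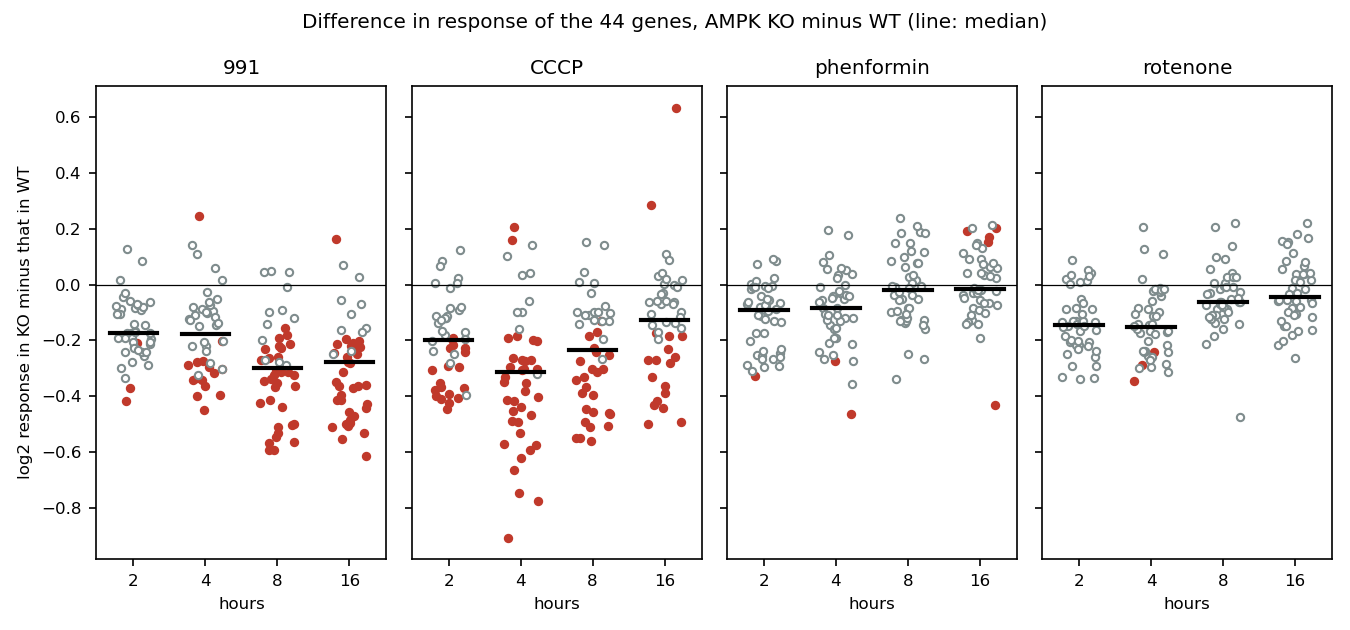
Log2 response in AMPK KO minus that in AMPK WT for each of the 44 members, by compound and hour; red filled points were called, open points were not, and the line is the median. The medians lie at -0.30 and -0.28 for 991 at 8 and 16 h and at -0.31 for CCCP at 4 h.

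With 991 at 16 h most members were also called higher in TFEB/TFE3 WT, ESRRA WT and siCont cells, but not in WT FNIP1 cells. There 5 were called higher, where 11.6% of all genes were. Called higher at 16 h were 36 of 44 in TFEB/TFE3 WT cells (41.1% of all genes), 42 in ESRRA WT cells (31.2%) and 35 with siCont (44.6%), and lower 2, 0 and 1 (17.9%, 15% and 12.4%). With median-ratio scaling the splits were 28 and 6 in TFEB/TFE3 WT cells and 14 and 5 with siCont. Of all genes, 57.2% and 48.3% were then called either way, so with siCont the members were called no more often than all genes. Their median with siCont was then 0.08, against 0.01 over all genes. Of the 44 members, 30 (68.2%) were called higher at 16 h in AMPK WT, TFEB/TFE3 WT, ESRRA WT and siCont cells alike, against 18.5% of the 12862 genes tested in all 5 tables. With WT FNIP1 cells added, 4 members (CDC25B, CDC25C, CKS2 and PTTG1) were called higher in all 5 control arms, against 818 of those 12862 genes. Since median-ratio scaling left 14 called higher with siCont, no more than 14 could be called in all 4 arms under it. Without rescaling, the 14 members not called higher in all of those 4 arms were CCNB1, CCNB2, CCNA2, CKS1B, AURKA, MAD2L1, CDC20, UBE2C, SPC25, BIRC5, KIF23, DLGAP5, ASPM and ECT2. They include all 3 mitotic cyclins. CCNB1 had a mean of 115 TPM with 991 and 124 TPM with DMSO in TFEB/TFE3 WT cells and fell by 0.10 (SE 0.04), the opposite sign to AMPK WT cells; tables were normalized separately and the difference between them was not tested. HMMR, by contrast, changed by 0.84 ± 0.06 in TFEB/TFE3 WT cells and by 0.79 ± 0.12 with siCont. At 24 h, 39 members were higher and 0 lower in TFEB/TFE3 WT cells, 41 and 0 in ESRRA WT cells, and 28 and 3 with siCont. Of all genes, 57%, 40.2% and 49.9% were called either way. With median-ratio scaling the 24 h splits were 28 and 4, 37 and 0, and 7 and 7, where 55.1%, 39.8% and 43.3% of all genes were called. The split with siCont at 24 h thus depended on the scaling.

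In TFEB/TFE3 DKO cells more members were higher than lower under DMSO. Against WT cells, 29 were higher and 3 lower (37.6% and 13.7% of all genes), with a median of 0.25 against 0.11 over all genes; with median-ratio scaling 21 were higher and 12 lower. FOXM1 had 68.2, 70 and 72.1 TPM in DKO and 41.5, 41.5 and 41.5 TPM in WT, a difference of 0.74 ± 0.03 (adjusted p = 2e-17, limma). NDC80 had 22.1, 25.9 and 23.5 TPM in DKO and 14.5, 17.2 and 15.2 TPM in WT, a difference of 0.58 ± 0.05. ANLN was higher by 0.61 ± 0.05 and CENPF by 0.55 ± 0.08, and the 3 lower members were SPC25, MAD2L1 and BIRC5. With 991, 2, 27, 32, 37 and 31 members were called higher in DKO at 2, 4, 8, 16 and 24 h, where 7.96%, 22.2%, 31%, 35.7% and 27.6% of all genes were, and 4, 2, 0, 0 and 0 lower (8.17%, 14.4%, 13.4%, 12.5% and 12.6%). With median-ratio scaling the splits at 8, 16 and 24 h were 23 and 4, 23 and 5, and 24 and 3.

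The difference of the DKO and WT responses to 991 was called for 2 members at 2 h, both negative, and 2 at 4 h, both positive, where 0.808% and 4.67% of all genes were called either way. It was called negative for 15 members at 8 h and 7 at 16 h (6.55% and 6.91% of all genes) and positive for 0 and 2 (6.81% and 5.74%). At 24 h it was negative for 16 and positive for 2, where 14.7% of all genes were called either way, or 11 and 3 with median-ratio scaling. FOXM1 had 80.1, 78.9 and 79.6 TPM with 991 at 16 h in DKO, and 60, 60.6 and 63.9 TPM in WT. Its level was thus higher in DKO at both ends, and its responses in DKO and WT differed by -0.38 ± 0.04 (adjusted p = 8.6e-07, limma). Those of NDC80 differed by -0.38 ± 0.07 and those of KIF4A, a chromosome-bound motor, by -0.36 ± 0.05. AURKA and BIRC5 had larger responses in DKO, by 0.20 ± 0.04 and 0.16 ± 0.05. Leaving out replicate 1 or 3 of every group left 4 members called at 16 h. At 8 h it left 2 and 7 and at 24 h 6 and 3, all negative, and at 2 and 4 h it left none.

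ESRRA KO cells showed a rise of the same kind. Called higher with 991 were 35, 34 and 28 members at 8, 16 and 24 h, where 27.3%, 31.5% and 24.2% of all genes were, and none was called lower (15.3%, 12.9% and 13.2%). At 2 h, 15 members were lower and 1 higher in KO (16.7% and 10.2% of all genes), or 12 and 3 with quantile normalization. The response differed from that of WT for 7 members at 16 h, all smaller in KO, where 1.53% of all genes were called negative and 1.31% positive. At 2, 4 and 24 h, 4, 6 and 7 members were called, all negative, where 2.21%, 4.62% and 1.29% of all genes were called either way. None was called at 8 h by limma (1.4% of all genes), where 10 had an unadjusted p under 0.05. The share of all genes at that unadjusted threshold is not given. CKS2 had 229, 227 and 229 TPM with 991 at 16 h in KO and 199, 230 and 213 TPM with DMSO in KO. In WT it had 258, 267 and 264 TPM with 991 and 173, 198 and 181 TPM with DMSO. The KO libraries overlapped between treatments and the WT libraries did not, and the responses differed by -0.42 ± 0.08 (adjusted p = 0.0017, limma). CENPA differed by -0.36 ± 0.09, CDK1 by -0.25 ± 0.07, TOP2A by -0.23 ± 0.05, UBE2C by -0.23 ± 0.05, CCNB1 by -0.22 ± 0.06 and PRC1 by -0.21 ± 0.05. Under DMSO 9 members were higher and 1 lower in KO (6.71% and 14.7% of all genes), CKS1B most (0.38 ± 0.07). Leaving out replicate 1, 2 or 3 of every group left 0, 2 and 1 members called for the 16 h difference, and leaving out replicate 1 or 3 left 5 under DMSO. It also left none called for the difference at 2, 4 and 24 h, and 15 members were called higher with 991 at 24 h in KO without replicate 1.

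With siPGC1a, 32 members were called higher and 1 lower at 16 h (39.2% and 12.7% of all genes), or 20 and 4 with median-ratio scaling, where 45.5% of all genes were called either way. HMMR had 37.2, 39 and 29.1 TPM with 991 and 17.5, 22.9 and 23.1 TPM with DMSO in siPGC1a cells, against 36.5, 36 and 39.1 TPM with 991 and 21.6, 20.9 and 20.8 TPM with DMSO in siCont cells. The treated libraries lay above the DMSO libraries in both arms. At 24 h with siPGC1a, 22 members were higher and 4 lower, where 50% of all genes were called either way. With median-ratio scaling the 24 h split was 5 higher and 11 lower (44.2% of all genes), and with quantile normalization 19 and 1. The direction at 24 h with siPGC1a thus depended on the scaling. The difference of the responses was called by limma for 0 members at 2, 4, 8, 16 and 24 h, and 4, 2, 1, 2 and 2 members had an unadjusted p under 0.05. Of all genes, 0%, 0.0224%, 0.0298%, 0.201% and 0.0671% were called after adjustment, and the share at an unadjusted p under 0.05 is not given. Under DMSO 12 members were higher and 1 lower with siPGC1a (14.3% and 9.89% of all genes), or 8 and 2 with quantile normalization, led by KIF4A (0.27 ± 0.05) and TPX2 (0.24 ± 0.04), with AURKB lower (-0.21 ± 0.04). Without replicate 2 of every group, 7 were called.

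In the FNIP1 table the results rested on the outlying SA5 DMSO library and on library 1 of SA5 cells with 991 at 8 h, the other outlying library. With all libraries, 31 members were called higher and 1 lower with 991 at 16 h in SA5 cells (39.2% and 5.76% of all genes), and 5 higher and 0 lower in cells with WT FNIP1 (11.6% and 4.87%), or 2 higher and 1 lower there with median-ratio scaling. The median was 0.74 in SA5 and 0.18 in WT FNIP1 cells. Without the outlying SA5 DMSO library 21 were higher and 0 lower in SA5 cells with a median of 0.25, and 19 and 0 in WT FNIP1 cells. Of all genes, 31.3% and 36.1% were then called either way. HMMR had 39.6, 33 and 42.8 TPM with 991 in SA5 cells and 1.41, 23.5 and 20.3 TPM with DMSO, the lowest being the outlying library. In WT FNIP1 cells it had 34.9, 38.4 and 34.6 TPM with 991 and 22.5, 23.2 and 23.1 TPM with DMSO, with no overlap, but a difference of 0.62 ± 0.48 that was not called in a fit that shares 1 spread over the table. The 5 members called in WT FNIP1 cells were CDC25C (0.58 ± 0.12), PTTG1 (0.49 ± 0.09), CDC25B (0.34 ± 0.07), CKS2 (0.33 ± 0.06) and UBE2C (0.30 ± 0.05). The difference of the responses was called by limma for 0 members at every time, with 1, 1, 0 and 3 at an unadjusted p under 0.05 at 2, 4, 8 and 16 h. Of all genes 0%, 0.00751%, 0.00751% and 0.015% were called at those times after adjustment, and the share at an unadjusted p under 0.05 is not given. The members' count of calls was also 0 without the outlying library. Under DMSO 8 members were lower in SA5 cells (8.64% of all genes) and 0 higher, NEK2 most (-0.88 ± 0.28); without the outlying library none was called, and leaving out replicate 2 or 3 of every group also left 0, while 7 were lower without replicate 1 and 13 without both outlying SA5 libraries. With 991 at 16 h, 16 members were higher in SA5 cells without replicate 3 and 15 with median-ratio scaling, where 20.5% and 36.3% of all genes were called either way. In WT FNIP1 cells, leaving out replicate 1, 2 or 3 gave 25, 2 and 0 calls with 991 at 16 h, where 42.9%, 4.13% and 3.6% of all genes were called.

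**Figure D5:**
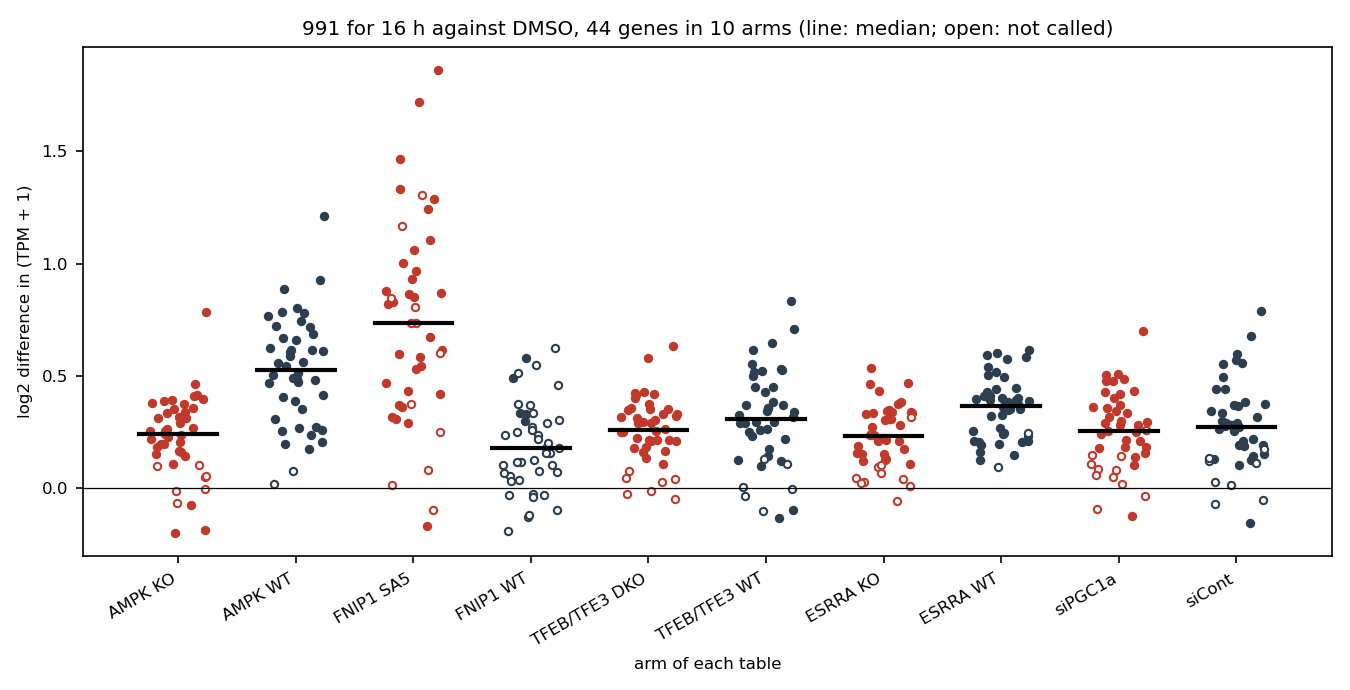
Log2 change with 991 at 16 h against DMSO for each of the 44 members in the 10 arms, each altered arm (red) left of its control arm (dark), with open points for changes that were not called. The AMPK pair has medians of 0.24 in KO and 0.53 in WT, and the SA5 arm, which includes the outlying DMSO library, has a median of 0.74.

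Other genes of the cell cycle were taken from lists of related function. Of 39 further mitosis genes measured in the AMPK table, 32 rose and 3 fell with 991 at 16 h in WT cells, where 41.9% and 26.9% of all genes did, with a median of 0.41; FZR1, the coactivator of the anaphase-promoting complex in G1, changed by 1.14 ± 0.13 and the cohesin protector SGO2 by 0.84 ± 0.10, while SPC24 (-0.32 ± 0.10) and TROAP (-0.13 ± 0.05) fell. In the same comparison 7 of 32 S phase genes were higher and 16 lower, with a median of -0.11: UHRF1 (-0.53 ± 0.05) and RRM2 (-0.39 ± 0.08) fell, and LIG1 (0.41 ± 0.08) and CDT1 (0.40 ± 0.07) rose. Of 11 tubulin genes, whose near-identical copies make their levels uncertain, all 11 fell, with a median of -0.17, TUBA4A most (-0.97 ± 0.12). Of 11 inhibitors of the cell cycle, 3 rose and 4 fell, with GADD45B lowest (-2.15 ± 0.23), and of 13 subunits of the DREAM and MYBL2-MuvB complexes and NF-Y 6 rose and 6 fell, with no test of these shares against those of all genes. In KO minus WT responses to 991 at 16 h, 17 of the 39 mitosis genes were called negative and none positive, where 10% and 4.96% of all genes were, and no tubulin was called.

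With phenformin at 16 h in WT cells, 45.3% of all genes were called higher and 34.9% lower. There 27 of 39 further mitosis genes were higher and 9 lower, 3 of 32 S phase genes were higher and 22 lower with a median of -0.40, and all 11 tubulins fell with a median of -1.23. RRM2, a ribonucleotide reductase subunit, had a mean of 34.2 TPM with phenformin and 111 TPM with DMSO, and TUBB4B 78.3 TPM with phenformin and 411 TPM with DMSO. GADD45A had 76.9 TPM with phenformin and 22.9 TPM with DMSO, and CDKN1A, the CDK inhibitor p21, rose by 1.24 ± 0.17. The median change of the 11 tubulins was -0.39 with rotenone and -0.50 with CCCP. Doses are not given, and an effect on microtubules was not tested. Between rotenone and phenformin at 16 h in WT cells, all 11 tubulins were higher with rotenone, with a median of 0.88; TUBB4B had a mean of 294 TPM with rotenone and 78.3 TPM with phenformin. Of the 32 S phase genes 18 were higher and 4 lower with rotenone, and of the 11 inhibitors none was higher and 7 were lower, where 29.3% and 40.1% of all genes were higher and lower. The mitosis members themselves, as given above, were split between these compounds in shares near those of all genes.

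Members were also grouped by whether any of their windows held a CHR match. With 991 at 16 h in WT cells the median change was 0.58 over 30 members with a match and 0.46 over 8 without, and with rotenone 0.38 and 0.31. With CCCP the medians were 0.35 and -0.01, and with phenformin 0.43 and 0.13. CCNB1, whose window holds neither CHR spelling searched, fell with both of these compounds. MAD2L1, whose window holds a match, fell with phenformin. Since no other spelling was searched, a member without a match is not shown to lack the element. These medians are descriptions over members chosen as cell cycle genes, and they carry no test.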

How the data were processed

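The series holds 240 polyadenylated RNA libraries of HEK 293T cells, 3 in each of 80 groups, grouped by their titles and tags. For 3 WT phenformin 2 h libraries and 3 WT CCCP 4 h libraries the labels disagree: the wording of the title and the description gives 991 for the phenformin libraries and 16 h for the CCCP libraries, and the library name within the title and the tags give phenformin and 4 h, by which they were placed. Per the submitters' processing notes, FastQC, STAR, HOMER and GRCh38 were used, without versions. The deposited values are TPM made by the authors, 1 table per experiment, normalized separately. Depth is unknown, and the 3 libraries of a group are the sole guide to precision.

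Genes with at least 1 TPM in at least 3 libraries were kept, 13317 to 13746 of them. The scale was log2(TPM + 1), which understates changes of low genes, and each table was fitted whole by limma 3.58.1 (R 4.3.3), with a mean for every group and empirical Bayes variances trended on expression. P-values were adjusted by Benjamini-Hochberg over all genes kept, with calls under 0.05. The script was tested on simulated data. The members and the other gene lists were chosen with earlier results of these data known. All members are counted; the panel given by library, the largest changes of each role and members against the majority are described by value. Replicate numbers were not treated as pairs in the main fit. In the AMPK table, deviations of libraries with the same number correlated with a median of 0.05, and 34.6% of pairs were over 0.1. Promoter windows came from RefSeq (GRCh38.p14) and were searched with Python 3.11.15. Alternatives were rescaling by median ratios or by quantiles, adding 0.1 instead of 1 TPM, keeping all genes, a replicate block, fits of only the groups compared, and leaving out replicates; leaving out named libraries was added after the data were seen.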

Additional observations from a re-analysis of the deposited data

Results flagged for a closer look

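The responses of KO and WT cells were compared gene by gene, and the comparisons in which limma called at least 1 of the 44 members for that difference are listed here with their values. With 991, the responses of AMPK KO and WT cells differed for 3 members at 2 h, 15 at 4 h, 32 at 8 h and 34 at 16 h. Of all genes, 3.01%, 12.1%, 21% and 15% were called either way. With CCCP they differed for 19, 35, 25 and 18 members at 2, 4, 8 and 16 h (8.61%, 27.6%, 21.4% and 28.2% of all genes). With phenformin they differed for 1, 2 and 5 members at 2, 4 and 16 h (1.23%, 3.4% and 13.9% of all genes). With rotenone they differed for 3 at 4 h (1.99% of all genes). A count near the share of all genes is no result about the members.

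Among the panel of 10 genes, the KO minus WT differences at 16 h of 991 on the log2 scale were -0.49 for CDK1, -0.26 for CDC25C, -0.28 for MAD2L1, 0.16 for CDC20, -0.36 for KIF20A and -0.37 for TOP2A. At 16 h of CCCP they were -0.39 for CDK1, 0.28 for CDC20, -0.19 for KIF20A, -0.23 for TOP2A and -0.17 for FOXM1. At 16 h of phenformin they were 0.20 for CCNB1 and 0.19 for CDC20. The CDC20 call with 991 was lost without replicate 1, 2 or 3 of every group, without the outlying libraries and with quantile normalization.

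The responses of TFEB/TFE3 DKO and WT cells to 991 differed for 2, 2, 15, 9 and 18 members at 2, 4, 8, 16 and 24 h. Of all genes, 0.808%, 4.67%, 13.4%, 12.7% and 14.7% were called either way. Those of ESRRA KO and WT cells differed for 4, 6, 7 and 7 members at 2, 4, 16 and 24 h (2.21%, 4.62%, 2.84% and 1.29% of all genes). Groups of 3 libraries were not tested for single outlying values.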

How the results depend on the processing

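The rises against DMSO in AMPK WT cells at 16 h, and those with 991 in TFEB/TFE3 WT and ESRRA WT cells, stayed within 1.5 times their counts under the alternatives run. The share of all genes called also moved between alternatives. A count from an alternative, here or above, that is given without that share does not set the members apart from all genes. Median-ratio scaling left 22 members called for CCCP at 4 h in KO, 10 for the phenformin and 1 for the rotenone KO minus WT difference at 16 h, 30 between rotenone and phenformin (18 higher and 12 lower, the opposite majority), 3 for 991 in WT FNIP1 cells, 2 under DMSO in SA5 cells and 19 for 991 with siCont. It removes the shift of all genes, whose median was 0.17 with siCont and -0.30 for SA5 DMSO. Quantile normalization gave 3, 1, 10 and 4 for phenformin, rotenone, WT FNIP1 with 991 and SA5 DMSO, and no filter gave 2 for SA5 DMSO. With only the groups compared in the fit, 14 members were called for the 991 difference at 8 h, 30 for WT FNIP1 with 991, 0 for SA5 DMSO, 3 for the ESRRA difference at 16 h, 3 for ESRRA DMSO and 7 for siPGC1a DMSO. The cause of these moves was not tested. A replicate block gave 14 for SA5 DMSO, 5 for the 991 difference at 2 h and the rotenone difference at 4 h, 1 for the rotenone difference at 2 h, 2 and 3 for phenformin at 2 and 8 h, and 1 for the TFEB/TFE3 difference at 4 h. It moved no other total of calls reported for an arm or a difference by over 1.5 times. Among AMPK libraries, deviations of those with the same number correlated over 0.1 in 34.6% of pairs. That share was 14.8% in the FNIP1 experiment, 1.01% with TFEB/TFE3, 1.52% with ESRRA and 2.53% with PGC1A. Whether same-numbered libraries share an effect was not tested.

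Without the 2 outlying AMPK libraries the phenformin difference had 5 calls (2 higher and 3 lower, the opposite majority) and the rotenone difference 3. Without the outlying SA5 DMSO library there were 19 calls for WT FNIP1 with 991 and 0 for SA5 DMSO, and without the outlying SA5 8 h library too, 31 and 13.

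Leaving out 1 replicate number in turn gave 12 to 35 calls for the 991 difference at 8 h, 11 to 35 at 16 h, 5 to 21 for CCCP, 0 to 9 for phenformin (1, lower, without replicate 2) and 0 to 2 for rotenone. It gave 0 to 25 for WT FNIP1 with 991, 0 to 7 for SA5 DMSO, 4 to 6 for the TFEB/TFE3 difference, 0 to 2 for the ESRRA difference, 5 to 7 for ESRRA DMSO and 7 to 12 for siPGC1a DMSO.

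Single differences that changed sign were small and not called. CDC20 with 991 was -0.0649 with median-ratio scaling and -0.0042 to 0.0588 when 1 replicate was left out in turn, with -9e-04 without replicate 1. MAD2L1 was -0.0036 with 991 and -0.0015 with rotenone under median-ratio scaling. CENPF with CCCP was -0.0062 and -0.005 with median-ratio scaling and quantile normalization. TPM keep no counts, so depth limits cannot be given.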
